A study of Mus musculus with 8 samples.

Results

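The cytosolic, or non-receptor, protein tyrosine phosphatases were examined in follicular T cells of pLN. By the gene names on the array, 9 genes of this family were taken: Ptpn1, Ptpn2, Ptpn4, Ptpn6, Ptpn7, Ptpn11, Ptpn13, Ptpn18 and Ptpn22. They were covered by 14 probes, among 29924 gene names, and 8 of the 9 were tested together with 15747 genes in all. Ptpn4 was not tested, since no array had its probe well above background. The arrays held RNA of 4 cell types, each measured once at d12 and once at d25 after s.c. immunization with KLH in alum. All mice were of the strain B6.Cg-Foxp3<tm1Mal>, in which EGFP is made wherever the Foxp3 promoter is active, were 8 to 14 weeks old and of both sexes, and 8 to 15 of them were pooled for a sample. Naïve CD4 T cells were sorted as GFP-PD1-GL7- cells, TFH cells as GFP-PD1hi GL7+, Treg cells as GFP+PD1-GL7- and TFR cells as GFP+PD1hi GL7+/-, all from CD4+B220- cells. The naïve gate did not use CD44, and the TFR gate, unlike the TFH gate, took GL7+ and GL7- cells.

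Protein tyrosine phosphatases remove phosphate groups that kinases such as Lck, Zap70 and the Janus kinases place on tyrosines, and thereby set how strongly and how long antigen, cytokine and costimulatory receptors signal. Most of the family members present in T cells dampen signals: SHP-1 and SHP-2 dock with paired SH2 domains onto inhibitory receptors such as PD1 and BTLA, PEP acts on Src family kinases, and TC-PTP and PTP1B act on JAK and STAT proteins. SHP-2 is the exception in growth factor signalling, where it promotes the Ras and MAP kinase pathway. TFH cells carry more PD1 than other CD4 T cells, and TFR cells are their Foxp3+ counterparts that restrain the germinal center.

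Values are normalized signals in relative units (RU) with a floor of 20, and differences are log2 differences with their SE from limma, 2 arrays per cell type. Calls were made at 0.05 after Benjamini-Hochberg adjustment over all genes tested. The p-values measure the spread between both arrays of a cell type, after a common shift between days is removed, and no cell type was replicated within a day. Between 18254 and 19867 probes were well above background on an array. Foxp3 was at 37266 to 49260 RU on the Treg and TFR arrays and at 66 to 358 RU on the others, Cxcr5 was at 35332 to 237475 RU on the follicular arrays and at 1399 to 4385 RU on the others, and Cd3e was at 110933 RU or more on every array, so these 3 genes followed the labels. Of the other markers of Foxp3+ cells, Lrrc32 and Il2ra were likewise high on the Treg and TFR arrays alone, whereas Ikzf2, which encodes Helios, read 10507 and 10816 RU on the TFH arrays, beside 9918 and 11104 RU on the Treg arrays and 81 and 145 RU on the naïve arrays. The TFH array of d25 stood apart in B cell markers. The summed signal of 8 B cell markers was 17718 RU there, with 7 of the 8 well above background, against 8191 RU and 5 of 8 on the TFH array of d12, 5923 to 8139 RU on the naïve arrays, 9916 and 10281 RU on the Treg arrays, and 7840 and 9006 RU on the TFR arrays. Pax5 was at the floor on all 8 arrays. Summed signals of 7 myeloid markers were between 17692 and 30277 RU and of 2 CD8 T cell markers between 2110 and 5117 RU, each highest on the naïve array of d12. Most of the myeloid sum came from Itgam (28500 RU on that array), and another of its genes, Cd68, a lysosomal protein of macrophages, was called higher in TFH against naïve (2.97 ± 0.16, adjusted p = 0.000336) and in TFR against Treg cells (2.76 ± 0.16, adjusted p = 0.000843). The summed signal of 6 proliferation markers was 16002 and 10535 RU on the TFH arrays, 39601 and 25781 RU on the TFR arrays, 5021 and 4434 RU on the Treg arrays, and 2180 and 1588 RU on the naïve arrays (d12 first). The part of these lists in the results was not tested. In such bulk samples a gene expressed by fewer cells and a gene expressed less per cell cannot be told apart.

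Ptpn11, Ptpn13 and Ptpn22 were called higher in both follicular cell types, and their promoters are shown for this reason, as the 250 bases before the annotated gene start, in the direction of transcription (RefSeq, GRCm38.p6). Windows were found for 8 of the 9 members. Motifs searched on both strands were TGACGTCA (the cAMP response element), TGACTCA (AP-1), TTCNNNGAA (the STAT palindrome) and GGGCGG (the GC box), whose matches are in capitals, and CCAAT and GGAAA, whose matches are not marked.
Ptpn11, chr5:121191398-121191647, minus strand: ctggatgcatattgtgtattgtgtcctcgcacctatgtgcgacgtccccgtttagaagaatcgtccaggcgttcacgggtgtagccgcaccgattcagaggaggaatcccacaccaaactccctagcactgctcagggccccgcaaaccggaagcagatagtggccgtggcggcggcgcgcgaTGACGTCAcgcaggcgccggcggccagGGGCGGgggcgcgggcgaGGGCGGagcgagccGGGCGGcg
Ptpn13, chr5:103424942-103425191, plus strand: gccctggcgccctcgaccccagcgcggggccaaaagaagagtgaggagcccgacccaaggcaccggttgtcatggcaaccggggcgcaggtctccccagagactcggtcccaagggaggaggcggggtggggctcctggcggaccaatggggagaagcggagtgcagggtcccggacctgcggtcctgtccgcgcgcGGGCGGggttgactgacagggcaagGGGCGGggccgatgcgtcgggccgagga
Ptpn22, first start, chr3:103859545-103859794, plus strand: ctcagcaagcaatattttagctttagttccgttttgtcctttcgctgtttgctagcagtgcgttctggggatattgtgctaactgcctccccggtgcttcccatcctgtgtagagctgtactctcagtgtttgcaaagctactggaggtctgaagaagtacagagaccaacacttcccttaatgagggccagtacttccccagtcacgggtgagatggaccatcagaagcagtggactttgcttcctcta
Ptpn22, second start, chr3:103860027-103860276, plus strand: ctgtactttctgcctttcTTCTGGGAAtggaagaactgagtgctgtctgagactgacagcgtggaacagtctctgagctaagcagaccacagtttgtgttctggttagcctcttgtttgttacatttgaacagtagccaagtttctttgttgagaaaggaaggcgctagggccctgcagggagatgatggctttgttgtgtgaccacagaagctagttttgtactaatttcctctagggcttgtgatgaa
The Ptpn11 window held 1 TGACGTCA, found in 1.55% of all 32851 promoter windows of this length, and 3 GC boxes, which 32.74% of the windows held at least once. The Ptpn13 window held 2 GC boxes and 1 CCAAT, a motif of 33.85% of all windows. Neither Ptpn22 window held a GC box, and the second held 1 STAT palindrome and 1 GGAAA, found in 7.02% and 55.57% of all windows. TGACTCA, present in 4.46% of all windows, was in none of these 4. GC content was 66.8% for Ptpn11, 72.4% for Ptpn13, and 49.2% and 46.0% for Ptpn22. No searched motif was shared by the 3 genes. A match is a description of the letters and was not tested for binding.

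Ptpn11 encodes SHP-2, the phosphatase that PD1 recruits. Its probe, at chr5:121580585-121580644 on the minus strand (NCBI37), read 10325 RU on the naïve array of d12 and 10969 RU on that of d25, and 103535 and 143522 RU on the TFH arrays. In Treg cells it read 10112 and 11193 RU, and in TFR cells 25764 and 27655 RU. The TFH arrays were thus far above all others, the TFR arrays came next, and naïve CD4 T and Treg cells overlapped at the base. In TFH cells, Ptpn11 exceeded its naïve level by 3.52 ± 0.13 on the log2 scale, or 11.5-fold (adjusted p = 0.00017). TFR cells exceeded Treg cells by 1.33 ± 0.13, or 2.51-fold (adjusted p = 0.00264). TFR cells were 4.57-fold below TFH cells (-2.19 ± 0.13, adjusted p = 0.00114). All 3 of these differences had the same sign at both days, with TFH minus naïve at 3.33 and 3.71 and TFR minus Treg at 1.35 and 1.30, each within 1 slide. Between Treg and naïve CD4 T cells the difference was 0.00 with a 95% interval of -0.33 to 0.33. Without the TFH array of d25, which was highest in B cell markers, the TFH to naïve difference was 3.34. Whether B cells contributed to these values was not tested.

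Ptpn6 encodes SHP-1, which shares the paired SH2 domains of SHP-2 and acts mainly as a brake on antigen receptor signalling. It moved the other way and by little. It read 17157 and 16185 RU on the naïve arrays, 11516 and 12812 RU on the TFH arrays, 13758 and 15245 RU on the Treg arrays, and 13603 and 14053 RU on the TFR arrays. The naïve and TFH arrays did not overlap, whereas the TFR and Treg arrays overlapped. Ptpn6 was 1.37-fold below naïve cells in TFH cells (-0.46 ± 0.10, adjusted p = 0.0182), a call that was lost without the d12 array of naïve CD4 T cells (-0.36, adjusted p = 0.109) or of TFH cells (-0.40, adjusted p = 0.0715). TFR differed from Treg cells by -0.07 ± 0.10 (adjusted p = 0.625, 95% interval -0.32 to 0.19).

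**Figure D1:**
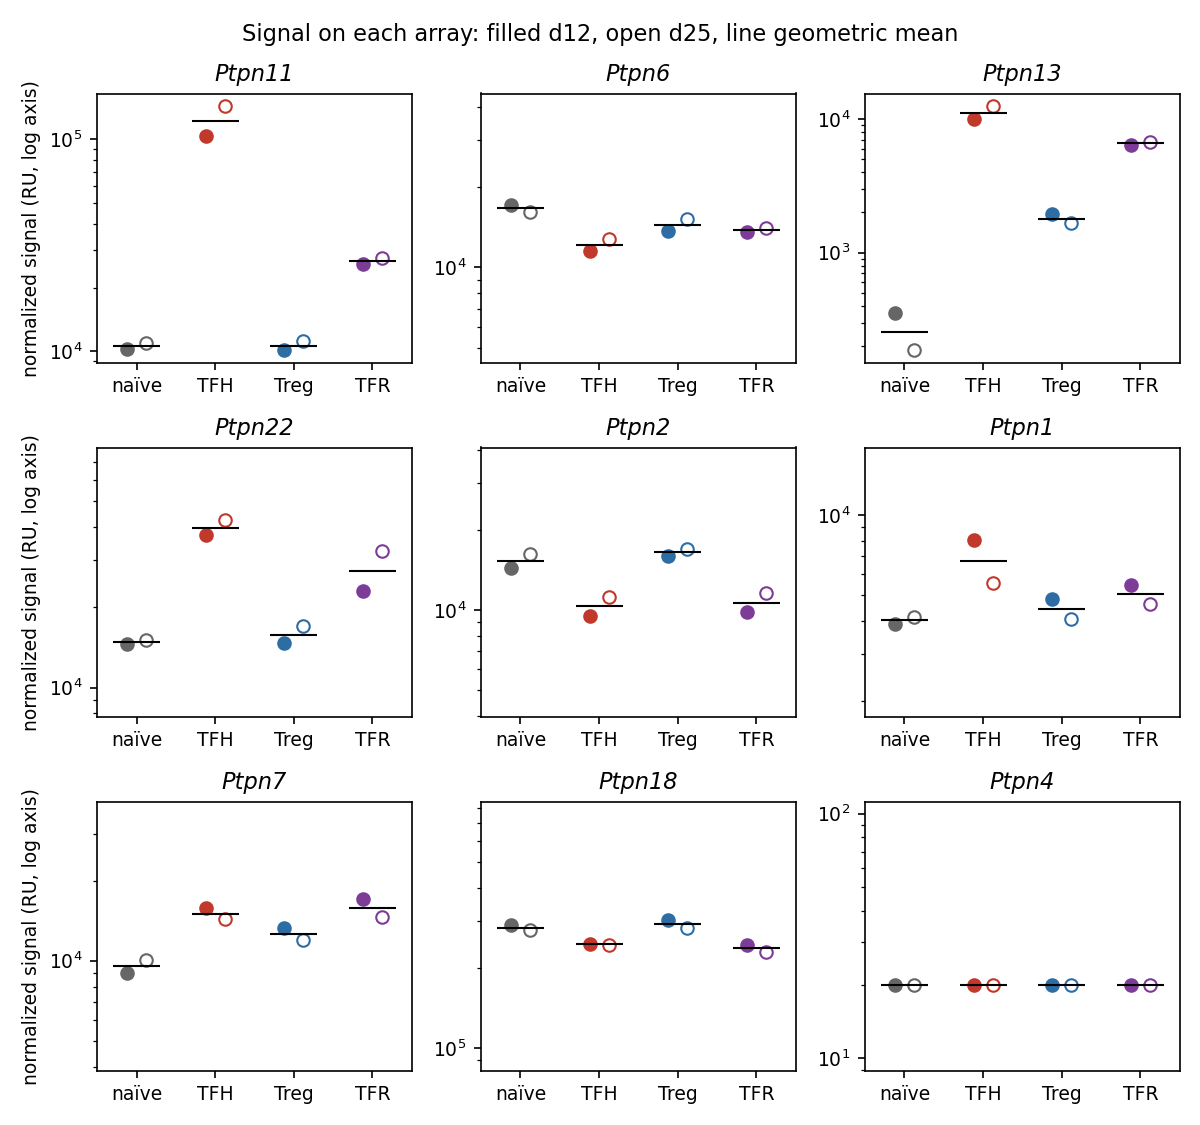
Normalized signal of the brightest probe of each phosphatase gene on every array, in RU on a log axis, by cell type. Filled points are d12, open points are d25, and lines are geometric means of both days. For Ptpn11 the TFH arrays sit at 103535 and 143522 RU and the TFR arrays at 25764 and 27655 RU, above naïve CD4 T and Treg cells. For Ptpn13 no cell type overlaps another, though the difference between TFR and TFH cells did not pass the test. Ptpn4 is at the floor of 20 throughout.

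Ptpn13 encodes a large scaffold phosphatase with a FERM domain and several PDZ domains, known to bind the death receptor Fas. It had the widest range of the members. Its probe, at chr5:104027311-104027370 on the plus strand (NCBI37), read 353 and 186 RU on the naïve arrays and 9900 and 12526 RU on the TFH arrays. It read 1933 and 1658 RU on the Treg arrays and 6375 and 6714 RU on the TFR arrays. No cell type overlapped another, in the order naïve, Treg, TFR and TFH. TFH cells exceeded naïve CD4 T cells by 5.44 ± 0.31, or 43.4-fold (adjusted p = 0.000388), the d12 difference being 4.81 and the d25 difference 6.07. This gap between days lay mainly in the naïve arrays, which differed from each other by 0.93 on the log2 scale. Naïve values were low, and the size of the rise varied with the processing. It was 4.78 with normexp background correction and 5.13 with the deposited table. TFR cells exceeded Treg cells by 1.87 ± 0.31, or 3.65-fold (adjusted p = 0.0106). By the brightest probes, Ptpn13 was the only tested member that was also called for Treg against naïve cells, beside 9.89% of all genes. Its level in Treg cells was 6.98-fold higher (2.80 ± 0.31, adjusted p = 0.00963). This call was lost without either Treg array (adjusted p = 0.084 and 0.0821). The top step of the order did not pass the test: TFR minus TFH was -0.77 ± 0.31 (adjusted p = 0.147, 95% interval -1.57 to 0.04). A second probe read 101 and 56 RU on the naïve arrays, 3365 and 3714 RU on the TFH arrays, 808 and 691 RU on the Treg arrays, and 1938 and 2097 RU on the TFR arrays. It gave 5.55 ± 0.27 for TFH against naïve and 1.43 ± 0.27 for TFR against Treg cells (adjusted p = 0.000261 and 0.0141), although only 1 of the 2 naïve arrays was well above background for it. The TFR to Treg call did not survive the loss of any 1 of its own 4 arrays (adjusted p between 0.0595 and 0.0807).

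Ptpn22 encodes PEP, a phosphatase of hematopoietic cells that works with Csk against Lck and Zap70. Its probe, at chr3:103716092-103716151 on the plus strand (NCBI37), read 14606 and 15072 RU on the naïve arrays, 37290 and 42355 RU on the TFH arrays, 14678 and 16972 RU on the Treg arrays, and 22960 and 32519 RU on the TFR arrays. Both follicular cell types were above their progenitors without overlap, and the TFR array of d25 stood closer to the TFH arrays than that of d12. TFH cells were 2.68-fold above naïve cells (log2 difference 1.35 at d12 and 1.49 at d25, SE of their mean 0.13, adjusted p = 0.00141). It was 0.79 ± 0.13, or 1.73-fold, in TFR against Treg cells (adjusted p = 0.0105), and this call was lost without either Treg array or without the TFR array of d25 (adjusted p = 0.0659, 0.0695 and 0.0548). TFR cells were 1.45-fold below TFH cells (-0.54 ± 0.13, adjusted p = 0.0455). That last call lay close to the threshold and was lost without any 1 of the 8 arrays (adjusted p between 0.0631 and 0.202).

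Ptpn2 and Ptpn1 encode TC-PTP and PTP1B, closely related phosphatases that act on JAK and STAT proteins. They moved in opposite directions in TFH cells. Ptpn2 read 14322 and 16162 RU on the naïve arrays, 9532 and 11235 RU on the TFH arrays, 16011 and 16997 RU on the Treg arrays, and 9821 and 11582 RU on the TFR arrays. Follicular cells thus formed 1 lower group and their progenitors 1 higher group. The difference was -0.56 ± 0.09 in TFH against naïve CD4 T cells (1.47-fold lower, adjusted p = 0.00681) and -0.63 ± 0.09 in TFR against Treg cells (1.55-fold lower, adjusted p = 0.00642), the latter lost without the d12 array of Treg (adjusted p = 0.0527) or TFR cells (adjusted p = 0.0555). The probes of Ptpn2 disagreed. The second probe, read at 475 to 1201 RU, gave -0.20 ± 0.29 and -0.55 ± 0.29 (adjusted p = 0.607 and 0.191). The third probe, read at 20 to 78 RU and well above background on 3 of 8 arrays, gave 1.5 ± 0.16 for TFH against naïve (adjusted p = 0.00222). The fall of Ptpn2 therefore rests on the brightest probe, which lies at base 8312 of the transcript where the third lies at base 1823, while the second is annotated on another transcript of the gene.

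Ptpn1 read 3886 and 4155 RU on the naïve arrays and 8068 and 5576 RU on the TFH arrays. It read 4855 and 4076 RU on the Treg arrays and 5471 and 4651 RU on the TFR arrays. Ptpn1 was highest in TFH cells at both days, and exceeded naïve cells by more at d12 (1.05) than at d25 (0.42). The mean difference from naïve cells was 0.74 ± 0.16, or 1.67-fold (adjusted p = 0.0188), and it was lost without the d12 array of TFH cells (0.54, adjusted p = 0.0701) or of naïve CD4 T cells (0.52, adjusted p = 0.0849). TFR minus Treg was 0.18 ± 0.16 (adjusted p = 0.413). A second probe, at 297 to 485 RU, gave 0.29 ± 0.21 for TFH against naïve (adjusted p = 0.292) and had its other high value on the Treg array of d25, at 478 RU.

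Ptpn7 encodes HePTP, which binds and inactivates MAP kinases. It read 8982 and 10100 RU on the naïve arrays, 15790 and 14284 RU on the TFH arrays, 13262 and 12006 RU on the Treg arrays, and 17045 and 14556 RU on the TFR arrays. Every other array was above both naïve arrays. The TFH to naïve difference passed the test at 0.66 ± 0.12, or 1.58-fold (adjusted p = 0.012), unless the d12 array of naïve CD4 T cells (0.49, adjusted p = 0.0555) or of TFH cells (0.62, adjusted p = 0.0569) was left out. Treg minus naïve was 0.41 ± 0.12 (adjusted p = 0.116) and TFR minus Treg 0.32 ± 0.12 (adjusted p = 0.0986). A second probe of the gene was dim, at 310 to 576 RU, and gave 0.32 ± 0.33 for TFH against naïve (adjusted p = 0.469). Its sequence is shown because the probe lies far upstream of the brightest one, at base 767 against 2472 of the transcript, at chr1:137034388-137034447 on the plus strand (NCBI37).
Ptpn7, second probe: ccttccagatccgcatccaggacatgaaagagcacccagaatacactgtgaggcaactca

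Ptpn18 encodes a phosphatase of the PEST group and was bright on every array. It read 289295 and 277330 RU on the naïve arrays, 246964 and 243448 RU on the TFH arrays, 302305 and 283627 RU on the Treg arrays, and 244349 and 229962 RU on the TFR arrays. Follicular cells were the lower group, without overlap, but by a small margin. TFR minus Treg was -0.30 ± 0.08, or 1.24-fold lower (adjusted p = 0.0363), and TFH minus naïve was -0.21 ± 0.08 (adjusted p = 0.0872). The values of Ptpn18 depended on the scaling: without quantile normalization, TFH minus naïve became -0.99 (adjusted p = 0.00139) and Treg minus naïve turned from 0.05 to -0.34 (adjusted p = 0.0856). The TFR to Treg call was lost under 8 of 19 alternatives, among them the loss of any 1 naïve, Treg or TFR array (adjusted p between 0.0747 and 0.17).
Ptpn4 encodes a phosphatase with FERM and PDZ domains, related to Ptpn3. Its only probe was at the floor of 20 RU on all 8 arrays, so no level or difference can be given. The probe is shown to mark which stretch was not detected, at base 1717 of the transcript and at chr1:121588332-121588391 on the minus strand (NCBI37).
Ptpn4, probe: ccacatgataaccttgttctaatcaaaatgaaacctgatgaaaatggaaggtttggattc

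**Figure D2:**
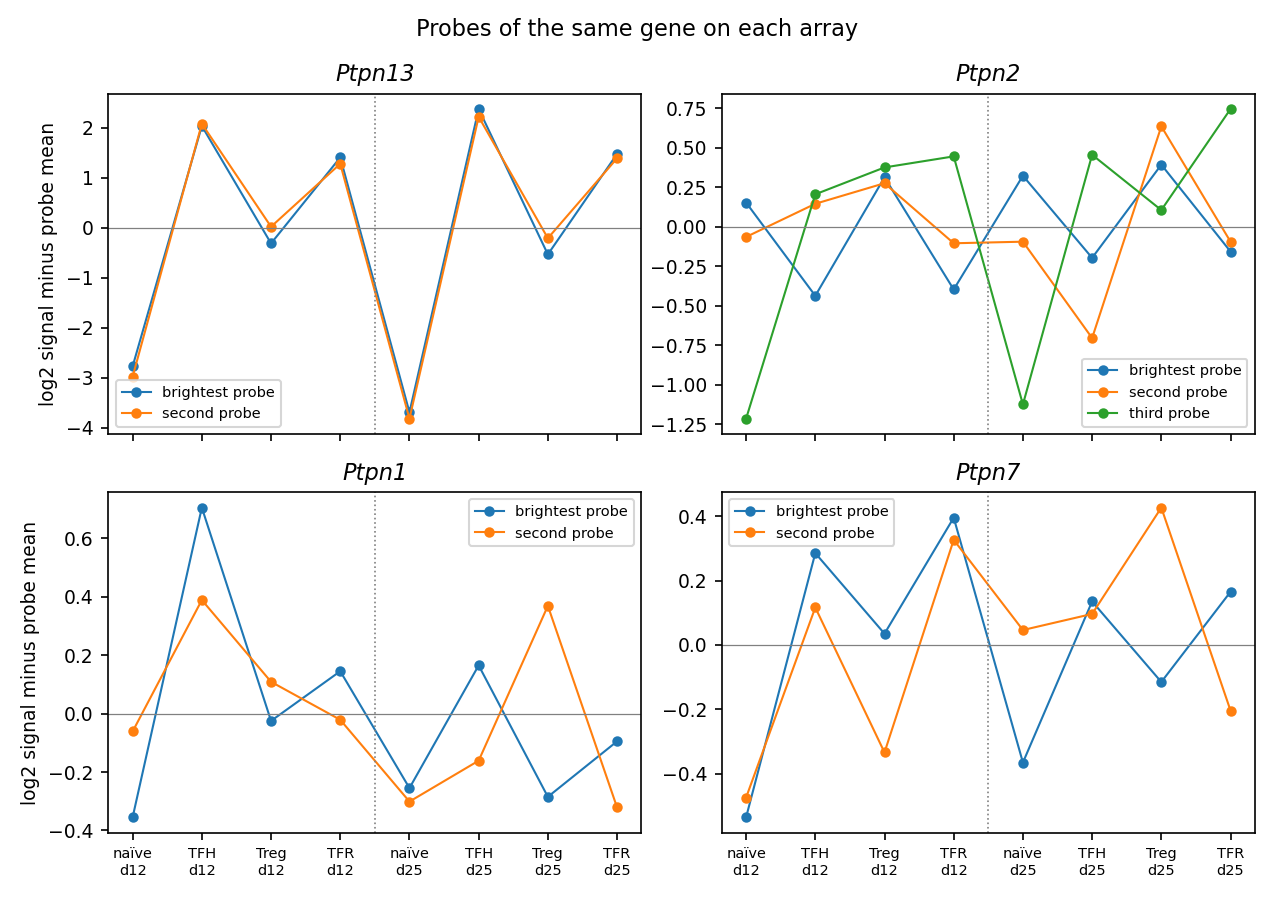
Log2 signal of each probe of Ptpn13, Ptpn2, Ptpn1 and Ptpn7, centered on its own mean over the 8 arrays, for the 4 cell types at d12 (left of the dotted line) and d25. Both Ptpn13 probes trace the same course, with TFH minus naïve at 5.44 and 5.55, whereas the probes of Ptpn2 part, at -0.56, -0.20 and 1.5.

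Counted by comparison, TFH against naïve cells gave 5 of 8 tested members higher and 2 lower, against 46.7% of all genes called in either direction (21% higher, 25.7% lower). Their median log2 difference was 0.70, and that of all genes -0.07. In TFR against Treg cells, 3 were higher (Ptpn11, Ptpn13 and Ptpn22) and 2 lower (Ptpn2 and Ptpn18), against 39.8% called among all genes (18.8% higher, 21% lower), with medians of 0.25 and -0.08. Calls were therefore common in both comparisons, and the count of members by itself says little, while Ptpn13 and Ptpn11 had larger absolute differences between TFH and naïve cells than 99.4% and 97.4% of all genes. Between TFR and TFH cells, 2 of 8 members were called, both lower in TFR (Ptpn11 and Ptpn22), against 22.2% of all genes (11.7% higher, 10.5% lower). In Treg against naïve cells 1 of 8 was called, as higher, against 9.89% (5.91% higher, 3.99% lower). These last 2 comparisons use the same arrays as the first 2 and cross slides at d25. With slide in place of day as a block, Ptpn11 in TFR against TFH cells remained at -2.11 ± 0.16 (adjusted p = 0.014; d12 alone, on 1 slide, -2.01). Under that block, Ptpn22 was at -0.66 ± 0.15 (adjusted p = 0.0822; d12 alone -0.70). Ptpn13 in Treg against naïve cells was at 2.69 ± 0.42 (adjusted p = 0.0709; d12 alone 2.45).

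**Figure D3:**
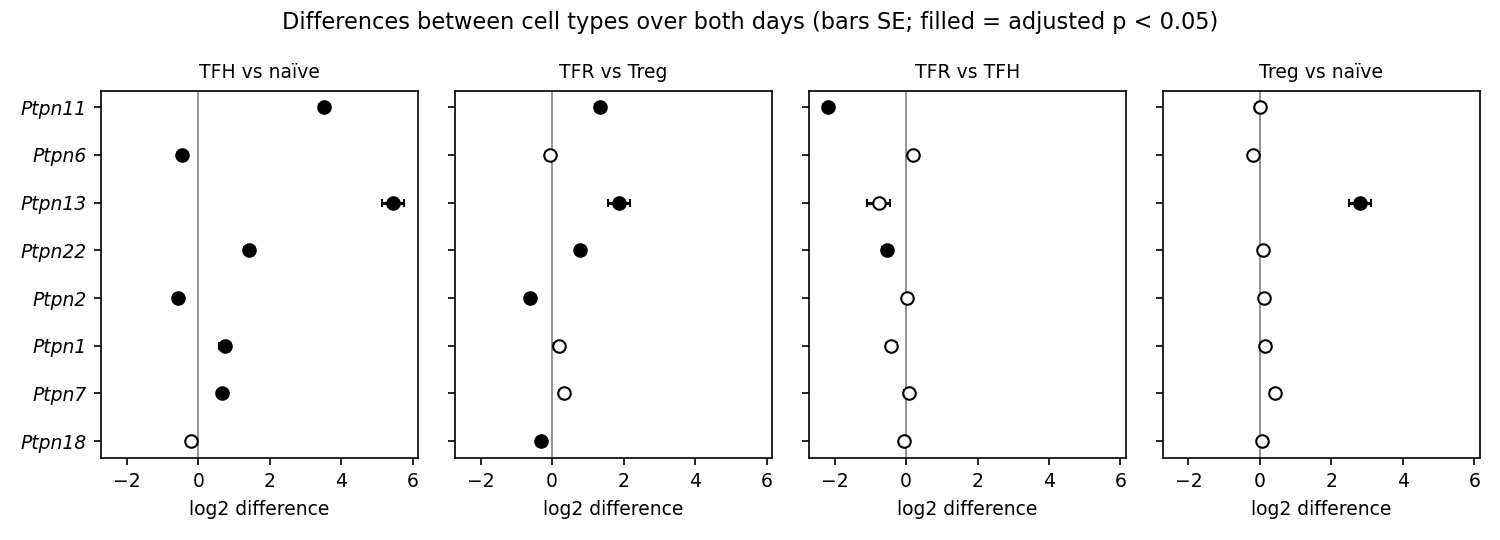
Log2 differences of the 8 tested phosphatase genes in the 4 comparisons of cell types, with SE as bars. Filled points passed an adjusted p of 0.05. Ptpn11, Ptpn13 and Ptpn22 lie to the right of 0 in TFH against naïve and in TFR against Treg cells, Ptpn11 is at -2.19 in TFR against TFH cells, and Ptpn13 alone is filled in Treg against naïve cells.

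Whether a gene changed to the same extent in Foxp3+ as in Foxp3- cells was tested directly, as TFR minus Treg less TFH minus naïve. The TFR gate, unlike the TFH gate, also took GL7- cells. Foxp3 status and the GL7 gate therefore cannot be told apart in this contrast. Ptpn11 and Ptpn13 differed: the contrast was -2.19 ± 0.18 for the first and -3.57 ± 0.44 for the second, so that the change was smaller in TFR cells (adjusted p = 0.00654 and 0.016). These were 2 of 8 members, against 8.52% of all genes (4.05% higher, 4.47% lower). The starting points differed between them. Ptpn11 began at levels of naïve and Treg cells that differed by 0.00 and ended 4.57-fold apart, while Ptpn13 began 6.98-fold higher in Treg cells and ended at levels whose difference did not pass the test. For Ptpn22 the same contrast was -0.63 ± 0.19 (adjusted p = 0.118, 95% interval -1.11 to -0.15). For Ptpn2, whose brightest probe fell in both, it was -0.07 ± 0.12 (adjusted p = 0.766). Under the alternatives, other probes among them, the limma contrast of Ptpn2 lay between -1.15 and 0.01, with a lowest adjusted p of 0.0503. For Ptpn6, Ptpn1, Ptpn7 and Ptpn18 the contrast was 0.39, -0.56, -0.34 and -0.10, none of them called. The contrast of Ptpn13 lay between -4.12 and -3.01 under the alternatives. The Ptpn13 call was lost without any 1 of the Treg or TFR arrays (adjusted p between 0.0775 and 0.0975), with its value between -3.40 and -3.74.

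**Figure D4:**
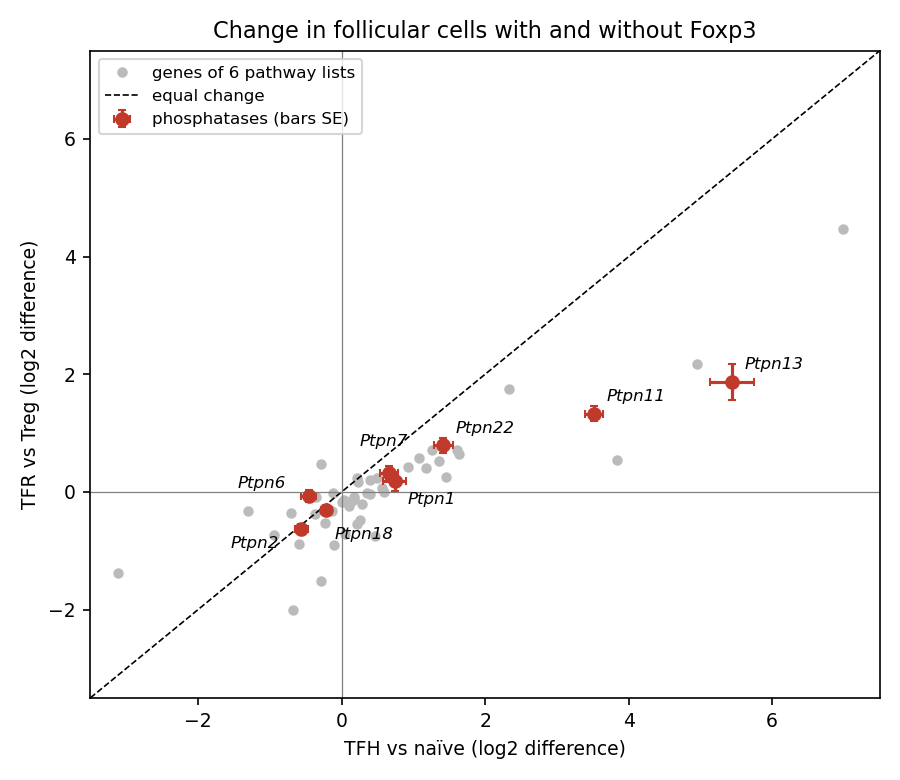
Log2 difference of TFR against Treg cells (vertical) plotted over that of TFH against naïve CD4 T cells (horizontal). Red points are the 8 tested phosphatase genes with SE bars, grey points the tested genes of the 6 pathway lists, and the dashed line marks equal change. Ptpn13 (5.44 and 1.87) and Ptpn11 (3.52 and 1.33) lie far below the line. Ptpn2 (-0.56 and -0.63) lies close to it by its brightest probe, and its probes disagreed.

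From d12 to d25, 0 of 8 members were called by limma, against 0.0699% of all genes (0.0191% higher, 0.0508% lower), and 1 of 8 had an unadjusted p below 0.05 (Ptpn2, 0.18 ± 0.06, adjusted p = 0.14). The values of the members lay between -0.23 for Ptpn1 and 0.24 for Ptpn22, and 0 of 8 were called under every alternative run. Days and slides cannot be told apart. Among the genes whose course over the 8 arrays was closest to Ptpn13, by root mean square distance of centered log2 values among 13283 genes, were an expressed sequence tag without a symbol, Maf (0.409) and Csf1 (0.434). Maf encodes a transcription factor of TFH cells and read 1379 and 1329 RU on the naïve arrays, 37438 and 61046 RU on the TFH arrays, 5566 and 5553 RU on the Treg arrays, and 18286 and 30114 RU on the TFR arrays. Closest to Ptpn11 were Smox, an oxidase of spermine (0.252), Dmwd (0.269) and Gm2138 (0.302).

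The surrounding pathway was described by 6 lists of 55 genes, of which 46 were tested. Among all genes, 46.7% were called in TFH against naïve, 39.8% in TFR against Treg, 22.2% in TFR against TFH and 9.89% in Treg against naïve cells, and a list count near these shares is no result about the list. Of 8 other cytosolic phosphatase genes, 5 were tested, and 1 was higher (Ptpn23, 0.39 ± 0.11, adjusted p = 0.0396) and 1 lower (Ptpn5, -0.36 ± 0.11, adjusted p = 0.0482) in TFH cells relative to naïve cells. In TFR against Treg cells, Ptpn12 was the 1 called gene of this list (-0.90 ± 0.13, adjusted p = 0.00666). The list of receptor-type phosphatases also held Ptprcap, whose product binds CD45 and is no phosphatase. Of its 6 tested genes, 3 rose and 1 fell in TFH cells. Ptprj, also known as CD148, read 4.96 ± 0.34 higher (adjusted p = 0.000611), Ptprs 2.34 ± 0.17 higher (adjusted p = 0.000763), and Ptprcap 0.92 ± 0.12 higher (adjusted p = 0.00353). The size of the Ptprj rise rests on dim naïve values of 113 and 68 RU, and the gene was well above background on 7 of 8 arrays. In TFR against Treg cells, 3 of the 6 rose, Ptprcap among them, and 2 fell, Ptprj by 2.17 ± 0.34 and Ptprs by 1.75 ± 0.17 upwards and Ptprc, which encodes CD45, by -0.75 ± 0.18 (adjusted p = 0.00875, 0.00282 and 0.0287).

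Of 7 receptors that bind SHP-1 or SHP-2, 4 were higher and 2 lower in TFH cells. Pdcd1, which encodes PD1 and was used for the sort, was higher by 6.99 ± 0.15, Ctla4 by 3.84 ± 0.10, and Lair1, a collagen receptor, was at -3.11 ± 0.32 (adjusted p = 7.91e-05, 8.38e-05 and 0.00186). For TFR relative to Treg cells, 3 were higher and 3 lower, with Pdcd1 at 4.47 ± 0.15, the adhesion receptor Pecam1 at -2.0 ± 0.11 and Lair1 at -1.38 ± 0.32 (adjusted p = 0.000366, 0.000724 and 0.0257). The list's median was 1.36 in TFH and 0.53 in TFR cells, beside -0.07 and -0.08 for all genes. These counts and medians include Pdcd1, whose rise follows from the sort on PD1. Medians without Pdcd1 were not computed. Of these receptors Pdcd1 and Btla shared with Ptpn11 that both TFH arrays were highest and both TFR arrays next.

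Of 10 tested kinases and adaptors next to the T cell receptor, among them targets of PEP and SHP-1, 5 were higher and 1 lower in TFH cells. The largest were Zap70 (1.26 ± 0.11), Fyn (1.17 ± 0.09) and Lcp2, the adaptor SLP-76 (1.08 ± 0.09), with adjusted p of 0.00107, 0.00086 and 0.00117. For TFR relative to Treg cells, 3 were higher and 3 lower, led by Cd247, the zeta chain (-0.89 ± 0.09), Zap70 (0.72 ± 0.11) and the adaptor Lat (-0.71 ± 0.11), with adjusted p of 0.00315, 0.0077 and 0.00979. Against TFH cells, TFR cells had 5 of the 10 lower and none higher, led by Lat (-0.87 ± 0.11), Cd247 (-0.76 ± 0.09) and the kinase Lck (-0.73 ± 0.14), with adjusted p of 0.00908, 0.00731 and 0.0262. Of 10 JAK kinases and STAT factors, among them targets of TC-PTP and PTP1B, 2 were higher in TFH cells, Jak2 (1.63 ± 0.10, adjusted p = 0.000471) and Stat4 (1.46 ± 0.12, adjusted p = 0.000914), and 1 lower, Stat6 (-0.37 ± 0.10, adjusted p = 0.0362). For TFR relative to Treg cells, 1 was higher, again Jak2 (0.64 ± 0.10, adjusted p = 0.00915), and 3 were lower. Of 8 tested adaptors, Ras genes and MAP kinases, 2 were higher and 2 lower in TFH cells, led by Gab3 (-1.30 ± 0.27), Nras (-0.94 ± 0.16) and Sos2, a Ras exchange factor (0.79 ± 0.09), with adjusted p of 0.0169, 0.00817 and 0.0025. For TFR relative to Treg cells, none was higher and 1 was lower, Nras (-0.73 ± 0.16, adjusted p = 0.0215). Between TFR and TFH cells, 0 of 5 other cytosolic phosphatase genes were higher and 1 was lower, Ptpn12 (-0.69 ± 0.13, adjusted p = 0.0218). In the same comparison, 1 receptor-type phosphatase was higher and 1 lower, and 1 receptor of SHP-1 or SHP-2 was higher and 3 lower. Of the JAK and STAT genes, 0 of 10 were higher and 2 lower, and of adaptors, Ras genes and MAP kinases 0 of 8 were higher and 3 lower. Between Treg and naïve cells, 2 receptor-type phosphatases (Ptprj and Ptprs) and 3 receptors of SHP-1 or SHP-2 (Ctla4, Pdcd1 and Slamf6) were higher, and Lair1 was lower (-2.09 ± 0.32, adjusted p = 0.022). Among the kinases and adaptors next to the T cell receptor, Lcp2 was higher (0.54 ± 0.09, adjusted p = 0.0301) and Cd247 lower (-0.47 ± 0.09, adjusted p = 0.0439) in that comparison. Ceacam1 was not matched by name on the array.

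**Figure D5:**
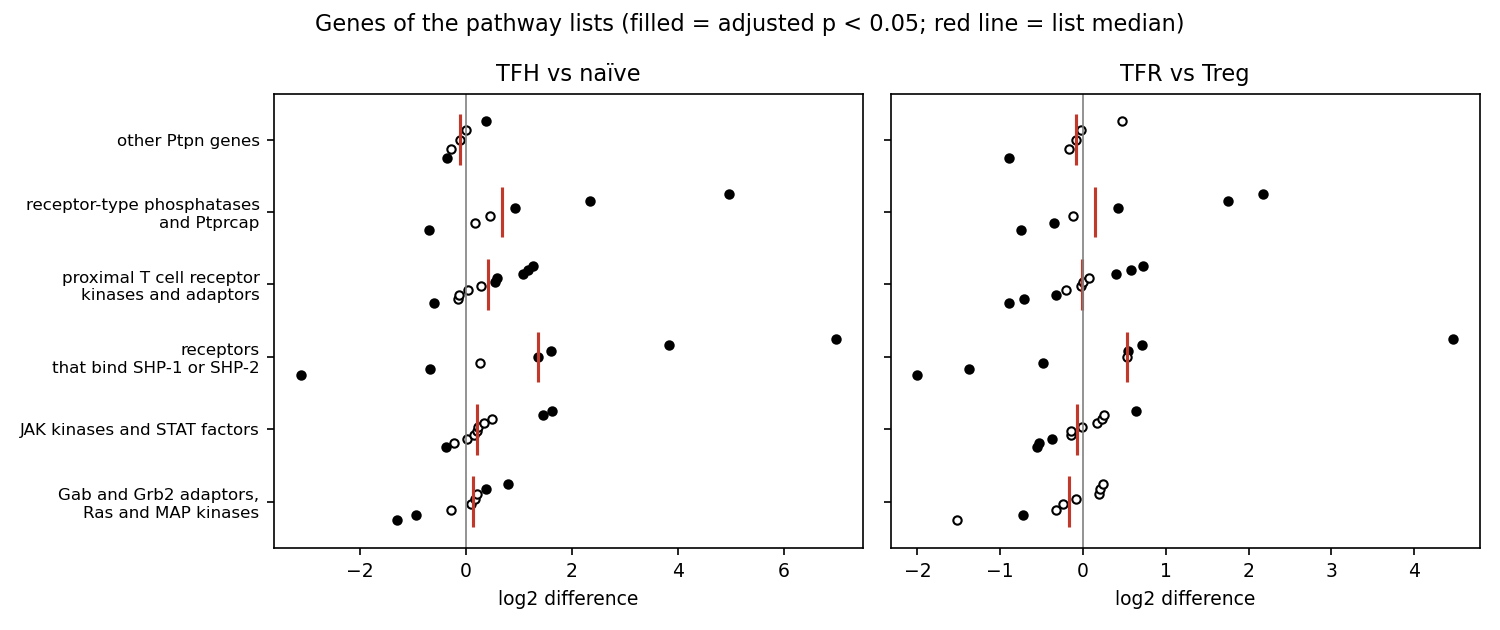
Log2 differences of the tested genes of the 6 pathway lists in TFH against naïve CD4 T cells (left) and TFR against Treg cells (right), on different horizontal scales. Filled points passed an adjusted p of 0.05, and red lines are list medians. The median of the receptors that bind SHP-1 or SHP-2 is at 1.36 on the left and 0.53 on the right. It counts the sort marker Pdcd1, which is the farthest point at 6.99 and 4.47.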

How the data were processed

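The authors hybridized cRNA from 25 ng of RNA to one-color arrays, extracted spots with Agilent Feature Extraction 10.7.3.1, and deposited the background-corrected spot intensity with flags and a table of normalized intensities. Their steps were repeated from the spots: flagged spots and spots outside 1.42 times the interquartile range or with a pixel variation above 0.5 were dropped (86.45% to 89.18% kept), the 4 spots of a probe were averaged geometrically, and values were quantile normalized, scaled to a 75th percentile of 1500 and floored at 20. The result correlated with the deposited table at r = 0.9994 across probes on each array. Member probes were offset from it by up to 0.472 log2 units on average (Ptpn18), and the offset of a probe varied over the arrays by 0.02 for Ptpn18, 0.248 for Ptpn11 and at most 0.394 (the second probe of Ptpn13). The number of arrays (8) limits precision.

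The brightest probe stood for a gene, which was tested if both arrays of any 1 cell type had it well above background, so a gene may pass through its high cell type alone. Differences came from limma 3.58.1 in R 4.3.3 with additive terms for cell type and day (3 residual and 1.91 prior degrees of freedom), checked on simulated data. All d12 arrays shared a slide, d25 naïve and TFH cells a second and d25 Treg and TFR cells the third. The labels give no replicate numbers, and only the day pairs arrays. The members, lists and tests were chosen with earlier results of these data known. The text names all members and, for each list and comparison, at most 3 called genes with the largest differences. Some genes were left out of the lists after their values were seen and are not reported here. Promoters came from a RefSeq table of GRCm38.p6, and probe positions are those of the files in NCBI37, with no annotation of that build used here. Alternatives are given in the closing section.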

Additional observations from a re-analysis of the deposited data

Results flagged for a closer look

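The change between progenitor and follicular cells differed between Foxp3+ and Foxp3- cells, by an interaction contrast in limma (TFR minus Treg less TFH minus naïve), for 2 phosphatases and 9 genes of the pathway lists, out of 8 and 46 tested. Among all genes 8.52% were called, 4.05% higher and 4.47% lower. The 11 values were negative, but the lists were chosen with earlier results of these data known. They also hold Pdcd1, which was used for the sort. Ptpn13 was at -3.57 ± 0.44 (adjusted p = 0.016), with changes of 5.44 in TFH and 1.87 in TFR cells. Ptpn11 was at -2.19 ± 0.18 (adjusted p = 0.00654), with changes of 3.52 and 1.33. Ctla4 was at -3.30 (3.84 in TFH, 0.54 in TFR cells), where Treg cells already read 4.02 above naïve CD4 T cells. Ptprj was at -2.79 (4.96 and 2.17), Pdcd1 at -2.52 (6.99 and 4.47), Stat4 at -1.22 (1.46 and 0.25), Jak2 at -0.99 (1.63 and 0.64), Btla at -0.89 (1.61 and 0.71) and Fyn at -0.76 (1.17 and 0.40). Ptprj was dim on the naïve arrays (113 and 68 RU), its Treg level was already 2.50 above naïve cells, and TFR minus TFH was -0.29 (adjusted p = 0.584). Pecam1, at -1.32, was lower in both (-0.68 and -2.0). Cd5, at -0.74, was at 0.26 in TFH and -0.48 in TFR cells. For these 9 genes the adjusted p of the contrast lay between 0.00269 (Ctla4) and 0.0466 (Cd5). The change of Cd5 in TFH cells and that of Stat4 in TFR cells were not called (adjusted p = 0.0956 and 0.153). Values under the alternatives are given for the members only. TFH cells were sorted as GL7+ and TFR cells as GL7+/-, so Foxp3 status and the GL7 gate cannot be told apart here.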

How the results depend on the processing

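Of 926 member values recomputed under the alternatives, 843 kept direction and call, 51 lost and 6 gained a call, and 26 changed sign, 3 of them from a called value. Ptpn11 kept its calls in TFH against naïve, TFR against Treg, TFR against TFH and the follicular contrast under each of 19 alternatives, and Ptpn13 and Ptpn22 kept theirs in TFH against naïve cells. The 3 called values that changed sign were Ptpn2 in TFH against naïve cells with the mean of all probes (0.25, adjusted p = 0.109) and with the third probe (1.5), and in TFR against Treg cells with the third probe (0.35). The others were uncalled on both sides. With the second probe, Ptpn1 in TFR against Treg was at -0.41 (-0.11 with the mean of all probes), Ptpn7 in TFR against TFH at -0.04 and between days at 0.18 (0.05 with the mean), and Ptpn2 between days at -0.12. Without quantile normalization, Ptpn18 was at 0.10 in TFR against TFH, -0.34 in Treg against naïve and 0.44 in the follicular contrast, Ptpn2 at 0.01 in the follicular contrast, and Ptpn6 at -0.02 between days; the median of all genes in TFH against naïve cells moved from -0.07 to -0.13. In Treg against naïve cells, Ptpn11 was at 0.03 with normexp, 0.01 with no spot excluded, 0.08 with the fixed and 0.03 with the random slide block, and Ptpn22 at -0.03 with the fixed block. Leaving out 1 array gave ranges across 0 for Ptpn7 in TFR against TFH (-0.03 to 0.16), for Ptpn1 (-0.07 to 0.37), Ptpn11 (-0.08 to 0.08) and Ptpn22 (-0.04 to 0.22) in Treg against naïve cells, and for Ptpn13 between days (-0.36 to 0.06). The cause of these changes was not tested.

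Counts of called members fell from 7 to 3 in TFH against naïve and from 5 to 2 in TFR against Treg cells when a log2 difference of at least 1 was required as well. In TFR against TFH cells the count was 1 instead of 2 under that rule, with no filter on dim genes, with slide as a fixed block, and with no replicate block (no day term). The count in TFH against naïve cells was 5 with the mean of all probes. It was 8 without quantile normalization and with an intensity trend in limma. For TFR against Treg cells it was 4 with the mean of all probes, no filter, no day term or slide as a fixed block. In Treg against naïve cells it was 2 with the mean of all probes, where Ptpn2 (0.69, adjusted p = 0.0223) joined Ptpn13. There it was 0 with no filter or the slide block, and in the follicular contrast 1 with no filter. Leaving out 1 array gave 4 to 7, 1 to 5, 1 to 1, 0 to 1 and 1 to 2 members in these 5 comparisons and 0 to 0 between days, where the lone array of a cell type was assumed to vary like the others. The low ends came without the d12 array of naïve or TFH cells in the first comparison and without the d12 Treg array in the second, without any array in the third, without either Treg array in the fourth and without any Treg or TFR array in the fifth. Ptpn13 gained a call in TFR against TFH cells with normexp (-0.79, adjusted p = 0.0343). Day is the only pairing of arrays. Dropping this block ended the calls of Ptpn22 in TFR against TFH (adjusted p = 0.128) and Ptpn18 in TFR against Treg cells (adjusted p = 0.0787) and no other member's. Over all genes, calls ranged from 4323 to 7833 in TFH against naïve (7348 as reported), 2524 to 6832 in TFR against Treg (6261), 950 to 4271 in TFR against TFH (3493), 423 to 2092 in Treg against naïve (1558), 303 to 1833 in the follicular contrast (1341), and 0 to 1141 between days (11), so that shares of called genes hold for these settings alone.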
